A study of Mus musculus with 24 samples.

Results

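Mouse embryonic stem cells (mESCs) on soft substrates were compared with those on stiff substrates 2 h after PD03 was removed from the medium. The 2 soft and 2 stiff libraries of that time point were taken, 4 of the 24 libraries of the series and of the 12 of the PD03 removal experiment, and every protein-coding gene with enough reads was tested. The cells were of the E14 line, labelled 129m wt, and were seeded on fibronectin-coated soft or stiff StemBond hydrogels. They spent 12 h in 2i + LIF, which held 1 µM PD03 and 3 µM CHIRON, and then 2 h in CHIRON + LIF, so that both groups kept CHIRON and LIF. CHIRON inhibits GSK3 and thereby stabilises β-catenin, and LIF is a cytokine that activates Stat3. The 0 h libraries came from cells that stayed in 2i + LIF, and the 12 h libraries from cells kept for 12 h in CHIRON + LIF. In the second experiment CHIRON was removed and PD03 stayed. E14 is a single line, and no label stated that the 2 replicates of a group were separate cultures, so p-values measure the spread between these samples, which may be technical.

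PD03 blocks MEK, the kinase that activates ERK, so ERK can signal again once it is washed out. Immediate early genes such as *Egr1* and *Fos* are transcribed within minutes of ERK activation, and their transcripts are short-lived. Later targets include the phosphatase gene *Dusp6* and the Sprouty genes, whose products dampen the same pathway. Embryonic stem cells make the ERK activator Fgf4 themselves, and ERK activity moves them from naive pluripotency towards differentiation.

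The 4 libraries held between 16761430 and 21029555 counts, within the range of 16222196 to 26442153 of the experiment. Levels are given as CPM, the usual scaling of counts to library size, here over the protein-coding genes tested and with TMM factors, and differences as log2 of soft minus stiff with the standard error (SE) of the fit. The cells expressed the 8 embryonic stem cell markers listed, whose summed level was 7010 to 7030 CPM on soft substrates and 6970 to 7210 CPM on stiff substrates. Of 6 lists of markers of other cell types, 3 did not overlap between substrates. Such a gap is common, since 18.2% of all genes tested had both soft libraries below both stiff ones and 18% had them above. Primitive endoderm markers summed to 3.64 to 4.29 CPM on soft and 5.41 to 5.54 CPM on stiff substrates, fibroblast markers to 12.5 to 13.2 against 11.2 to 11.7 CPM, and neural markers to 38.6 to 40.8 against 34.3 to 35.3 CPM, with *Olig2* at 0. Of the 5 fibroblast genes tested, 2 had a negative difference, against the direction of the sum. No gene of these 3 lists passed the test, and their part in the results below was not tested. In bulk RNA, fewer cells with a transcript and less of it per cell cannot be told apart.

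Of 13422 genes tested, 18 passed an adjusted p of 0.05 (edgeR quasi-likelihood test, Benjamini-Hochberg), which is 0.134% of all genes. On soft substrates 17 of them were lower (0.127%) and 1 was higher (0.00745%). The 17 were *Egr1*, *Dusp6*, *Smad7*, *Gm20594*, *Epha2*, *Spry4*, *Hes1*, *Scd2*, *Lefty2*, *Dnmt3l*, *Fos*, *Marcksl1*, *Nab2*, *Basp1*, *Mthfd2*, *Nxn* and *Soga3*, and the higher gene was *Lima1*. *Egr1*, *Lefty2* and *Fos* differed most, and the other 15 changed by less than 1.5 times. At an unadjusted p under 0.05, 537 genes were higher and 611 lower, so the excess of lower genes was much smaller there than among the 18. The median difference over all genes was 0.001. The soft and stiff libraries did not overlap for any of the 18, which is a weak criterion on its own, since 18.2% of all genes had both soft libraries below both stiff ones and 18% had them above.

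**Figure D1:**
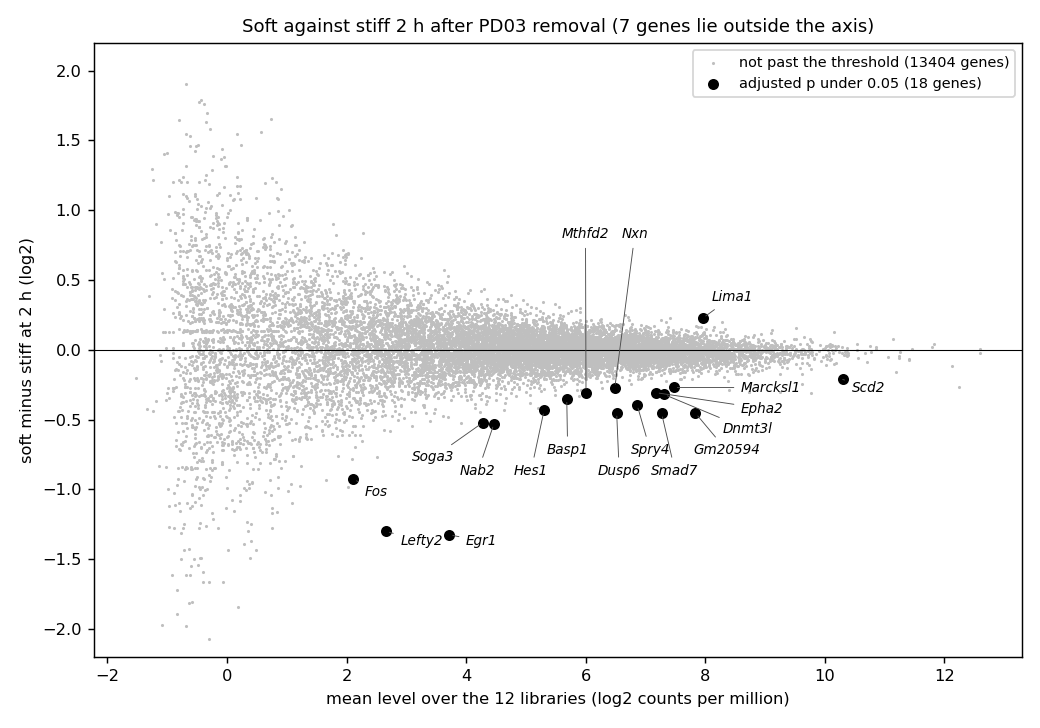
Difference between soft and stiff substrates 2 h after PD03 removal (log2, y axis) against mean level over the 12 libraries (log2 CPM, x axis) for each gene tested. Black points are the 18 genes past an adjusted p of 0.05, of which 17 lie below 0 and *Lima1* above, and 7 genes lie outside the axis.

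The genes of the immediate early response came first. *Egr1*, a zinc finger transcription factor gene (chromosome 18, 34859823 to 34864984, plus strand, mm10), had 22.5 and 23.5 CPM in the soft libraries and 53.7 and 61.6 CPM in the stiff ones. Both soft libraries were well below either stiff library. The difference was -1.33 (SE 0.13, adjusted p = 1.5e-06), which makes the stiff level 2.51 times the soft level. With DESeq2 in place of edgeR the difference was -1.33 as well but did not pass (adjusted p = 0.96), whereas it passed in the other 10 alternative fits. *Egr1* was nearly silent outside this time point. The raw counts at 0 h were 0 and 3 on soft and 4 and 0 on stiff substrates, those at 12 h were 1 and 9 against 5 and 5, and those at 2 h lay between 295 and 857. A difference between substrates before removal or at 12 h was not detectable at that depth.

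*Fos*, which encodes a subunit of the transcription factor AP-1, had 6.70 and 6.28 CPM on soft and 11.1 and 13.7 CPM on stiff substrates, so it was lower in both soft libraries. The difference was -0.93 (SE 0.18, adjusted p = 0.022). At 0 h it had 2.47 and 1.71 CPM on soft and 2.08 and 1.52 CPM on stiff substrates, and at 12 h 1.65 and 1.76 against 1.51 and 1.48 CPM. The gap between substrates was thus seen at 2 h, when *Fos* was high on both, while at 0 h and 12 h the fitted differences were 0.25 and 0.18 and did not pass the test. *Fos* had only 79 to 190 counts in a library at 2 h, and its adjusted p rose to between 0.20 and 0.28 without soft replicate 1, soft replicate 2 or stiff replicate 2.

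*Nab2* encodes a corepressor that binds EGR proteins and is itself induced by them. It had 28.1 and 32.4 CPM on soft and 38.6 and 48.8 CPM on stiff substrates. Its soft libraries were lower, with a difference of -0.53 (SE 0.10, adjusted p = 0.023), and without soft replicate 1, soft replicate 2 or stiff replicate 2 the adjusted p was 0.54, 0.071 and 0.33. The *Nab2* locus overlaps *Nemp1* by 1668 bases and *Stat6* by 40 bases on the opposite strand, and whether reads were counted by strand is not given in the sources used here, so its counts are uncertain. *Nemp1* and *Stat6* differed by 0.09 (SE 0.082, adjusted p = 0.82) and -0.03 (SE 0.078, adjusted p = 0.94).

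Over the 28 immediate early genes listed, 24 were tested, 2 were lower (*Egr1* and *Fos*) and 0 were higher. The list was chosen with results of these data known. Its median difference was -0.26, compared with 0.001 over all genes, and 22 of the 24 genes had a negative difference, against 49.7% of all genes. In 13 of the 24 both soft libraries lay below both stiff ones (18.2% of all genes), and in 0 of them above (18% of all genes). The lean was not particular to this list. Both soft libraries lay below in 9 of 18 YAP and Hippo genes and above in 1. For integrin and focal adhesion genes these counts were 8 and 1 of 19, and for heat shock and stress genes 8 and 2 of 15. For Ras, Raf, MEK and ERK cascade genes they were 2 and 3 of 25. Without the low-count filter *Ier2* and *Arc* passed too (adjusted p = 0.023 and 0.028). *Ier2*, the next in order of p, had 56.3 and 59.6 CPM against 71.6 and 70.0 CPM, a difference of -0.29 (SE 0.066, adjusted p = 0.079). At 0 h and 12 h, in libraries that the 2 h comparison does not use, the median of the immediate early list was 0.005 and -0.04.

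The negative regulators of ERK signalling were the second group. *Dusp6*, which encodes the phosphatase that acts on ERK itself (chromosome 10, 99263231 to 99267489, plus strand), had 128 and 131 CPM on soft and 176 and 178 CPM on stiff substrates. The replicates lay close together and the substrates well apart. The difference was -0.45 (SE 0.051, adjusted p = 6.2e-06). *Spry4*, a Sprouty gene whose product restrains signalling from receptor tyrosine kinases to ERK, had 176 and 182 CPM on soft and 220 and 251 CPM on stiff substrates. It was lower by a similar amount, -0.39 (SE 0.064, adjusted p = 0.0025), and without soft replicate 1 or stiff replicate 2 its adjusted p was 0.16 and 0.14.

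Both genes rose strongly once PD03 was removed. From 0 h to 2 h *Dusp6* rose by 1.90 on soft (adjusted p = 5e-20) and 2.15 on stiff substrates (adjusted p = 3.4e-22), and *Spry4* by 3.12 and 3.14 (adjusted p = 9.2e-22 and 1.2e-22). These comparisons share the 2 h libraries with the difference between substrates. The rise was not shown to differ between substrates, with a difference in response of -0.26 (SE 0.083, adjusted p = 0.99) for *Dusp6* and -0.02 (SE 0.12, adjusted p = 0.99) for *Spry4*. In 2i + LIF *Spry4* was already at 20.0 and 21.3 CPM on soft and 30.3 and 23.7 CPM on stiff substrates, a difference of -0.37 that did not pass the test (adjusted p = 0.30).

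Of the 16 genes tested in the list of 19 ERK feedback genes, these 2 were lower and 0 were higher. The median was -0.13 and 13 differences were negative, against 49.7% of all genes. Negative differences were about as common in other lists, with 12 of 15 SRF and MRTF targets and 15 of 19 integrin and focal adhesion genes. Among the Ras, Raf, MEK and ERK cascade genes 15 of 25 were negative. *Spry2*, the next ERK feedback gene by p, had 126 and 134 CPM against 147 and 147 CPM (difference -0.18, SE 0.056, adjusted p = 0.34). Lists of genes that carry the signal held no call, but with 0.134% of all genes called, this is not a result about lists of their size. None of the 25 Ras, Raf, MEK and ERK cascade genes, the 14 ETS factor genes and the 9 FGF ligand and receptor genes tested passed, and their medians were -0.005, -0.006 and -0.07.

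**Figure D2:**
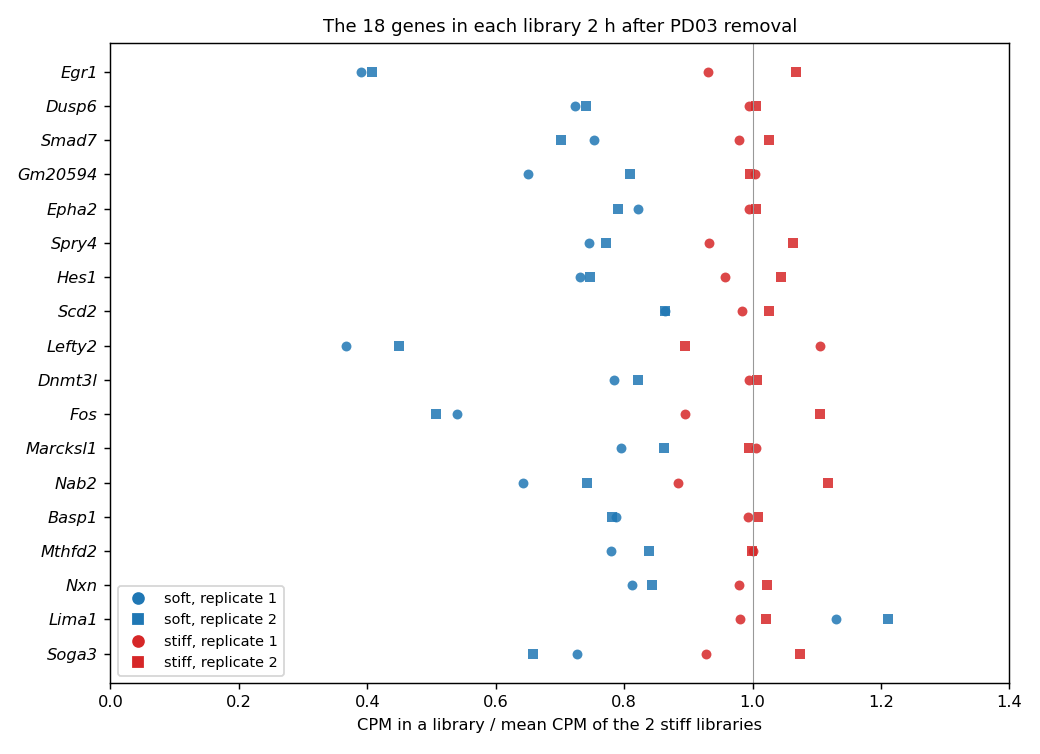
CPM of the 18 genes in each of the 4 libraries at 2 h, divided by the mean of the 2 stiff libraries (x axis), with circles for replicate 1 and squares for replicate 2. The soft libraries (blue) lie left of the stiff ones (red) for 17 genes and right of them for *Lima1*, and *Egr1*, *Lefty2* and *Fos* lie farthest left.

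*Epha2*, which encodes a receptor tyrosine kinase for ephrins, had 157 and 151 CPM on soft and 190 and 192 CPM on stiff substrates. It was lower in both soft libraries by -0.31 (SE 0.050, adjusted p = 0.0025), and its adjusted p was 0.10 without soft replicate 2 and 0.058 without stiff replicate 2. *Epha2* rose after PD03 removal on both substrates, by 0.51 on soft and 0.71 on stiff (adjusted p = 1.2e-07 and 3.1e-11).

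Sequences before the RefSeq starts of *Fos*, *Epha2* and *Nab2* are shown as examples. They hold an EGR motif or the core of a cyclic AMP response element, the site of CREB. *Dnmt3l* and *Basp1* held that core too and are not shown. Windows of 250 bases before to 50 bases after the RefSeq start (GRCm38.p6) were matched for 12 of the 18 genes, with the first window taken where a gene had several, and were searched on both strands. *Egr1*, *Smad7*, *Spry4*, *Hes1*, *Scd2* and *Lefty2* were not matched. *Fos* is shown for its TGACG core letters at positions -129 to -125 and -66 to -62 from the start, in capitals (chr12:85473690-85473889, plus strand). *Epha2* is shown for an EGR motif, GCGTGGG read on the other strand, at -169 to -163, and for the full element TGACGTCA at -33 to -26 (chr4:141301021-141301220, plus strand). *Nab2* is shown for its EGR motif at -31 to -25, also read on the other strand, with 10 bases on each side (chr10:127666718-127666744, minus strand). GENCODE M21 annotates *Nab2* up to position 127668568, so these bases lie inside the annotated gene rather than upstream of it. They overlap no annotated exon, although exons of *Nab2* and *Nemp1* lie in the 200 bases before the RefSeq start.
*Fos*: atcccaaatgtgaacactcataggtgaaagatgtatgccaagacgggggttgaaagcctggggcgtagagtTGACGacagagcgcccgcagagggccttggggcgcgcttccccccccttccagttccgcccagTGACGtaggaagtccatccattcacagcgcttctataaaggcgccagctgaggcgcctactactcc
*Epha2*: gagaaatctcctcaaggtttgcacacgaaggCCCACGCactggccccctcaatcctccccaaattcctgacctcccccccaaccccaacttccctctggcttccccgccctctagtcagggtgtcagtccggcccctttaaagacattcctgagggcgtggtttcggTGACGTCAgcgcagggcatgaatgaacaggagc
*Nab2*: cccggttctgCCCACGCcctcctcccg

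The EGR motif GCGTGGG stood in 2 of the 12 windows (*Epha2* and *Nab2*) and in 8.56% of the windows of 10234 tested genes. TGACGTCA stood in 1 (*Epha2*) against 3.24%, and TGACG, which it contains, in 4 (*Epha2*, *Dnmt3l*, *Fos* and *Basp1*) against 30.8%. The ETS motif CCGGAA stood in 1 (*Nxn*) against 27.9%, and a CArG box, the site of SRF, in 1 (*Lima1*) against 1.29%. The *Lima1* window (chr15:99820100-99820399, minus strand) lies inside the gene, which GENCODE M21 annotates up to position 99875456. The AP-1 motif TGANTCA, the RBPJ motif GTGGGAA and the SMAD motif GTCTAGAC stood in 0 of the 12, against 4.66%, 6.17% and 0.235% of all windows. A match is a description of these letters, and no match bears only on these windows.

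*Smad7* and *Lefty2* are targets and inhibitors of the TGFβ family. *Smad7*, which encodes the inhibitory Smad (chromosome 18, 75367529 to 75395935, plus strand), had 174 and 162 CPM on soft and 226 and 237 CPM on stiff substrates. Its difference was -0.46 (SE 0.052, adjusted p = 6.2e-06), about that of *Dusp6*. *Smad7* was lower on soft substrates at every time, with 120 and 120 against 148 and 147 CPM at 0 h (-0.30, SE 0.053, adjusted p = 0.043) and 110 and 121 against 148 and 141 CPM at 12 h (-0.32, SE 0.055, adjusted p = 0.0029). *Smad7* and *Dusp6* were the 2 of the 18 genes that passed in all 11 alternative fits.

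*Lefty2*, which encodes a secreted inhibitor of Nodal (chromosome 1, 180893108 to 180899103, plus strand), had 2.92 and 3.58 CPM on soft and 8.80 and 7.12 CPM on stiff substrates. It was the member with the largest difference after *Egr1*, -1.30 (SE 0.24, adjusted p = 0.014), at a low level of 41 to 135 counts in a library. At 0 h its order was the opposite, with 13.9 and 10.3 CPM on soft and 8.06 and 6.57 CPM on stiff substrates, a difference of 0.74 (SE 0.19, adjusted p = 0.24). *Lefty2* fell by 1.90 on soft substrates within 2 h (adjusted p = 1.9e-06), whereas on stiff substrates the change was 0.14 (adjusted p = 0.84). By 12 h it was low on both, with 1.72 and 2.67 CPM on soft and 3.74 and 1.90 CPM on stiff substrates (-0.38, adjusted p = 0.78). It was the only gene whose response differed between substrates over all 13422 genes (0.00745% of them), by -2.04 (SE 0.31, adjusted p = 0.0039). That difference kept its direction but not the threshold without soft 0 h replicate 1 (adjusted p = 0.11), soft 2 h replicate 1 (0.098), stiff 0 h replicate 2 (0.063) or stiff 2 h replicate 1 (0.060). The 2 h difference itself had an adjusted p of 0.43, 0.092 and 0.17 without soft replicate 1, soft replicate 2 and stiff replicate 1.

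Of the 20 Nodal and Lefty pathway genes listed, 17 were tested, these 2 were lower and 0 were higher, with a median of -0.05. *Pcsk6*, which encodes a protease that matures Nodal, was next by p with 114 and 114 CPM against 126 and 129 CPM (-0.16, SE 0.052, adjusted p = 0.35). *Nodal* itself had 50.5 and 56.9 CPM on soft and 61.4 and 58.8 CPM on stiff substrates (-0.17, SE 0.076, adjusted p = 0.54). It was named after its values were seen.

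*Hes1* encodes a transcriptional repressor downstream of Notch. It had 38.7 and 39.5 CPM on soft and 50.6 and 55.2 CPM on stiff substrates, a difference of -0.44 (SE 0.078, adjusted p = 0.0096). The 2 soft libraries stayed at their 0 h level of 37.7 and 36.8 CPM, with a change of 0.07 (adjusted p = 0.81), while on stiff substrates *Hes1* rose by 0.67 from 32.2 and 34.3 CPM (adjusted p = 5.1e-07). At 12 h the values were 40.2 and 38.7 CPM on soft and 33.0 and 36.7 CPM on stiff substrates, so the stiff level was back near that of 0 h. The difference between substrates at 2 h against that at 0 h was -0.60 (adjusted p = 0.058), and against that at 12 h it was -0.62 (adjusted p = 0.095), so neither passed. The adjusted p of the 2 h difference was 0.23, 0.092 and 0.16 without soft replicate 1, soft replicate 2 and stiff replicate 2.

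**Figure D3:**
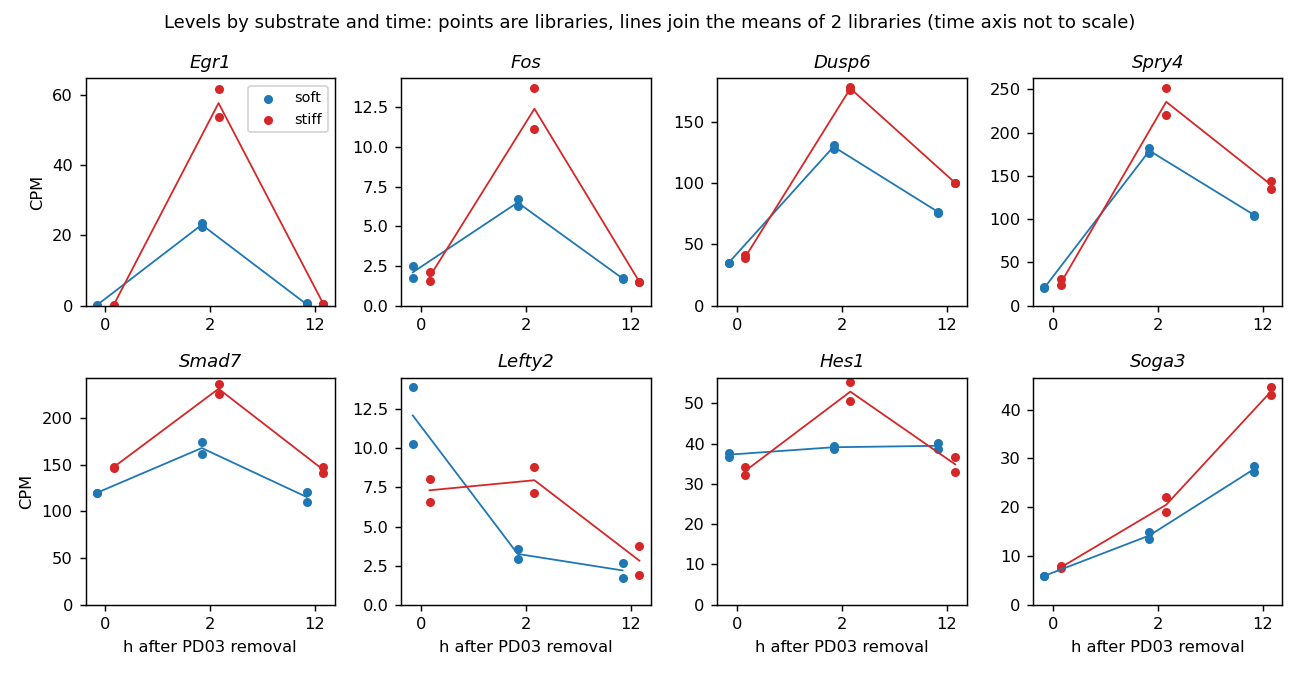
CPM (y axis) of 8 of the 18 genes at 0 h, 2 h and 12 h after PD03 removal on soft (blue) and stiff (red) substrates, where points are libraries and lines join the means of 2 libraries. *Egr1* and *Fos* peak at 2 h, *Hes1* rises on stiff substrates, *Lefty2* falls on soft ones from 0 h to 2 h, and *Soga3* is highest at 12 h.

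The remaining lower genes had smaller differences and diverse roles. *Dnmt3l*, the cofactor of the de novo DNA methyltransferases, had 123 and 129 CPM on soft and 156 and 158 CPM on stiff substrates (-0.32, SE 0.060, adjusted p = 0.015). Like *Smad7*, it already differed at 0 h, with 97.6 and 117 against 137 and 133 CPM (-0.33, adjusted p = 0.043). Its call at 2 h was lost without any 1 of the 4 libraries (adjusted p 0.073 to 0.42). *Scd2*, a stearoyl-CoA desaturase gene of fatty acid synthesis, had 1010 and 1010 CPM against 1150 and 1200 CPM (-0.21, SE 0.039, adjusted p = 0.013). *Mthfd2*, a mitochondrial enzyme of folate metabolism, had 59.9 and 64.4 CPM against 76.9 and 76.7 CPM (-0.31, SE 0.063, adjusted p = 0.033). Both metabolic genes were lower on soft substrates, and both calls were lost without soft replicate 1, soft replicate 2 or stiff replicate 2 (adjusted p 0.14 to 0.19 for *Scd2* and 0.092 to 0.55 for *Mthfd2*), that of *Mthfd2* also without stiff replicate 1 (0.16).

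*Marcksl1* and *Basp1* encode proteins that bind the inner face of the plasma membrane. *Marcksl1* had 155 and 168 CPM on soft and 196 and 194 CPM on stiff substrates (-0.27, SE 0.053, adjusted p = 0.022). *Basp1* had 44.8 and 44.4 CPM against 56.5 and 57.4 CPM (-0.35, SE 0.071, adjusted p = 0.026). Neither changed past the threshold from 0 h to 2 h on either substrate (adjusted p 0.15 to 0.94). *Nxn*, which encodes nucleoredoxin, a regulator of Dishevelled, had 78.0 and 81.0 CPM on soft and 93.9 and 98.2 CPM on stiff substrates at 2 h (-0.27, SE 0.056, adjusted p = 0.035). It did not change past the threshold from 0 h to 2 h (adjusted p = 0.92 on soft and 0.65 on stiff substrates). *Soga3* had 14.9 and 13.5 CPM on soft and 19.0 and 22.0 CPM on stiff substrates (-0.52, SE 0.11, adjusted p = 0.044), and it rose further by 12 h, to 27.3 and 28.4 against 42.9 and 44.6 CPM. The calls of *Basp1* and *Nxn* were lost without any 1 of the 4 libraries (adjusted p 0.11 to 0.32 and 0.073 to 0.54). That of *Marcksl1* was lost without soft replicate 1, stiff replicate 1 or stiff replicate 2 (0.11 to 0.55), and that of *Soga3* without soft replicate 1, soft replicate 2 or stiff replicate 2 (0.23 to 0.33).

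*Lima1*, which encodes an actin-bundling protein of stress fibres and junctions, was the 1 gene higher on soft substrates. It had 278 and 298 CPM on soft and 241 and 251 CPM on stiff substrates, a difference of 0.23 (SE 0.048, adjusted p = 0.043). *Lima1* was higher on soft substrates at 0 h and 12 h too, with differences of 0.19 (adjusted p = 0.24) and 0.29 (adjusted p = 0.0029). From 0 h to 2 h it fell by 0.21 on stiff substrates (adjusted p = 0.0078), and on soft ones the change was -0.17 (adjusted p = 0.054). Its 2 h call was lost without any 1 of the 4 libraries (adjusted p 0.10 to 0.39). The pseudogene *Gm4468* lies within *Lima1* on the same strand and had 856 to 1074 counts, so reads could be split between them.

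*Gm20594* is uncertain as a gene. It is a 449-base transcript on chromosome 6 (79817916 to 79818364). Its bases 1 to 432 align with the mitochondrial ribosomal RNA *mt-Rnr2* at 88.5% identity, over an alignment of 435 positions with gaps. It had 167 and 208 CPM on soft and 258 and 256 CPM on stiff substrates (-0.46, SE 0.070, adjusted p = 0.0016), and its adjusted p was 0.23 without soft replicate 1. *mt-Rnr2* moved with it: it took 5.76% and 6.29% of all counts on soft and 7.83% and 7.29% on stiff substrates, and differed by -0.37 (SE 0.065, adjusted p = 0.019) when all annotated genes were tested. All 13 protein-coding genes of the mitochondrial genome also had negative differences at 2 h, with a median of -0.27. Of these 0 passed, whereas 6 passed with only the 4 libraries compared and 11 without the low-count filter. At 0 h 12 of the 13 were negative (median -0.13), and at 12 h 12 were negative (median -0.31) and 7 passed. Without the mitochondrial genes and *Gm20594* the other 17 genes were called as before. In the 2 h soft libraries of the CHIRON experiment *Gm20594* was at 0.641 and 1.52 CPM.

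The 0 h and 12 h libraries are not used in the 2 h difference, although all 12 libraries share the estimate of the spread. At 12 h 103 genes differed between substrates (0.767% of those tested, 0.291% higher and 0.477% lower), among them 7 of the 18. *Dusp6* (-0.39, adjusted p = 0.00034), *Smad7*, *Spry4* (-0.42, adjusted p = 0.0018), *Dnmt3l* (-0.28, adjusted p = 0.0081), *Nxn* (-0.28, adjusted p = 0.0068) and *Soga3* (-0.65, adjusted p = 0.00034) were lower on soft substrates, and *Lima1* was higher. The sign was the same as at 2 h for 16 of the 18, the exceptions being *Fos* and *Hes1*. At 0 h 4 genes differed (0.0298%), of which *Smad7* and *Dnmt3l* were 2, and 14 of the 18 had the sign seen at 2 h. *Hes1*, *Fos*, *Lefty2* and *Gm20594* did not. At an unadjusted p under 0.05 (edgeR), 14 of the 18 differed at 0 h, against 7.21% of all genes. *Hes1* and *Lefty2* were among the 14, with the opposite sign. Over all genes 49.9% of the differences were negative at 0 h and 50.7% at 12 h.

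**Figure D4:**
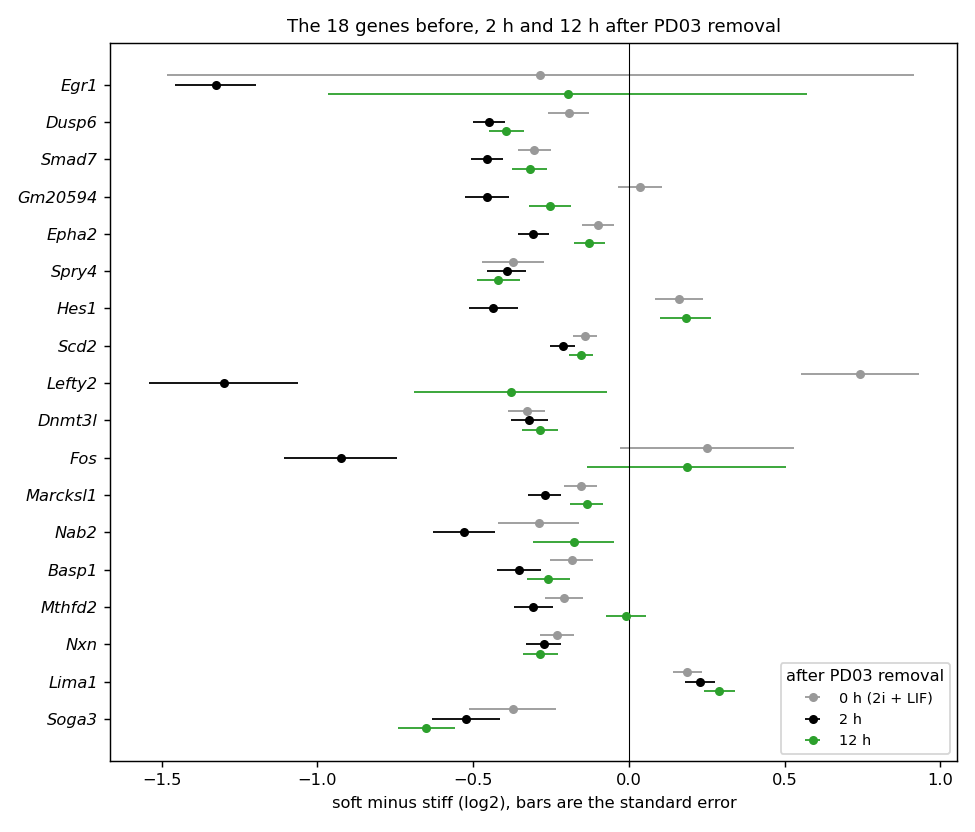
Difference between soft and stiff substrates (log2, x axis, bars are the standard error) of the 18 genes at 0 h (grey), 2 h (black) and 12 h (green) after PD03 removal. The 3 times lie close together for *Spry4*, *Dnmt3l* and *Nxn*, and apart for *Lefty2*, *Fos* and *Hes1*, while the bars of *Egr1* are wide at 0 h and 12 h, when it had few counts.

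No gene differed more or less at 2 h than at 12 h by the direct test of that difference (0 of 13422 by edgeR, 795 at an unadjusted p under 0.05, 3 by DESeq2). The genes therefore cannot be divided into early and lasting ones by this test. From 0 h to 2 h, 9 of the 18 rose and 2 fell on soft substrates, where 1.96% of all genes changed (1.31% rose and 0.648% fell). On stiff substrates 12 rose and 2 fell, where 2.73% of all genes changed (1.83% rose and 0.894% fell). These comparisons share the 2 h libraries on which the 18 were chosen, so the counts cannot be weighed against those shares. *Egr1*, *Dusp6*, *Smad7*, *Epha2*, *Spry4*, *Dnmt3l*, *Fos*, *Nab2* and *Soga3* rose on both, and *Gm20594*, *Hes1* and *Mthfd2* passed on stiff substrates alone. Of the 18, the test of the difference in response passed for *Lefty2* alone.

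The same substrates and time with PD03 still present came from the CHIRON experiment, in which 0 of the 18 genes passed and 0 of 14391 genes did (521 at an unadjusted p under 0.05). DESeq2 called 771 genes there. One of its 2 stiff libraries at 2 h held 171333 counts, against 19393787 to 31111260 in the other 11 libraries of that experiment, and the study discarded it. Without it, 13 of the 18 had the sign seen after PD03 removal, the smallest adjusted p was 0.82, and the stiff group was a single library assumed to vary like the others. *Dusp6* was low there, with 12.9 and 12.9 CPM on soft and 16.6 CPM in the stiff library kept (-0.37, SE 0.15, adjusted p = 0.82). *Egr1* had 2.37 and 1.74 CPM on soft and 2.38 CPM on stiff substrates (-0.22, SE 0.41, adjusted p = 0.94).

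The 10 genes next in order of p did not pass. *Zfp157*, a zinc finger gene, had 69.9 and 69.3 CPM on soft and 56.5 and 56.7 CPM on stiff substrates (0.30, adjusted p = 0.054). *Ooep* (-0.29), *mt-Co1* (-0.27), *Ccnd3* (cyclin D3, -0.22), *Ier2*, *Cited1* (a transcriptional coactivator, -0.98), *Steap3* (a metalloreductase, -0.32) and *Plk3* (a Polo-like kinase, -0.52) had negative differences, and *Hexa* (a lysosomal hexosaminidase, 0.25) and *Rbm5* (an RNA-binding protein, 0.23) positive ones, with adjusted p between 0.070 and 0.097.

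Lists of other pathways and of the mechanical response held no gene that passed at 2 h, and were described by their medians. Since 0.134% of all genes were called, the lack of a call is not a result about lists of this size. Of 15 SRF and MRTF cytoskeleton targets the median was -0.08, and *Actb*, the gene of β-actin, came closest with 4650 and 4650 CPM on soft and 5040 and 5050 CPM on stiff substrates (-0.12, SE 0.032, adjusted p = 0.18). Of 18 YAP targets and Hippo genes the median was -0.08, with *Cyr61* at 37.4 and 32.6 against 41.3 and 42.9 CPM (-0.26, SE 0.090, adjusted p = 0.36) and *Ctgf* at 37.6 and 37.5 against 41.1 and 49.3 CPM (-0.26, SE 0.095, adjusted p = 0.38). The medians of both lists lay slightly below 0. The medians were -0.06 for 19 integrin and focal adhesion genes, -0.02 for 13 matrix and basement membrane genes and -0.06 for 15 heat shock and stress genes, of which *Hmox1* (heme oxygenase) had 33.6 and 33.9 against 43.8 and 44.4 CPM (-0.38, SE 0.095, adjusted p = 0.12). Without the low-count filter *Actb* and *Hmox1* passed (adjusted p = 0.024 and 0.0083).

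**Figure D5:**
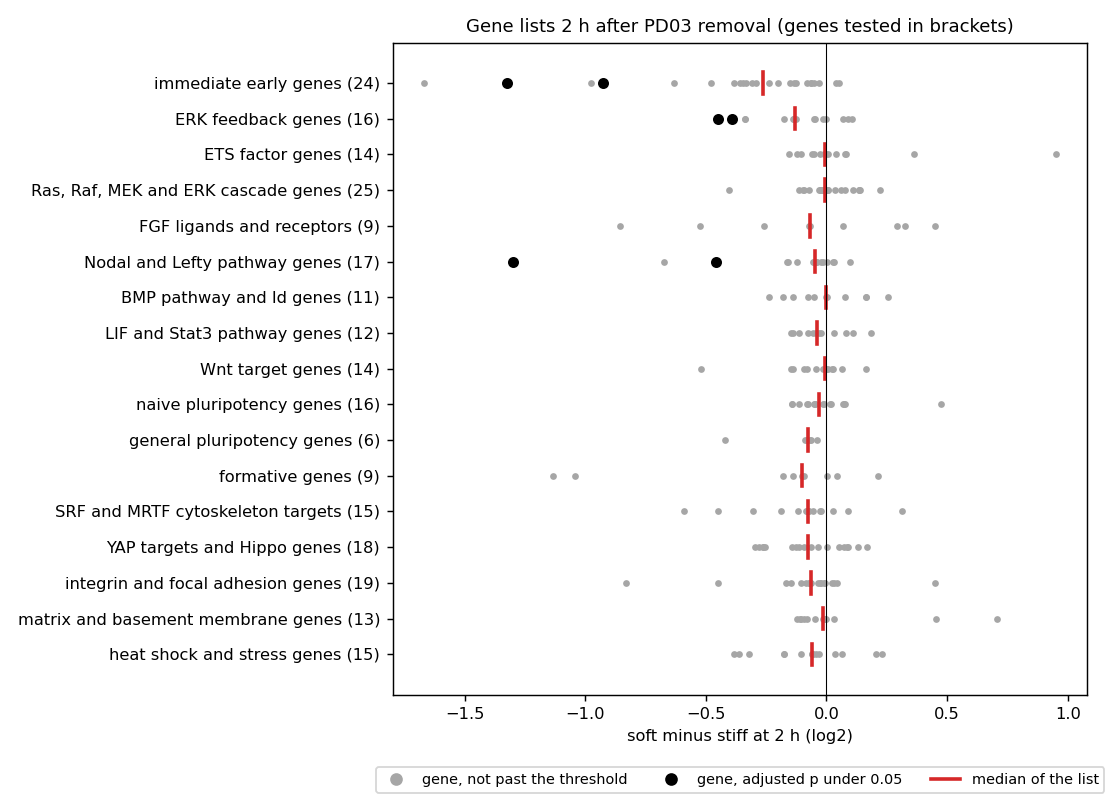
Difference between soft and stiff substrates at 2 h (log2, x axis) of each gene tested in 17 lists, where grey points did not pass, black points had an adjusted p under 0.05 and red bars are list medians. The 6 black points belong to the immediate early, ERK feedback and Nodal and Lefty lists, and the immediate early list has the lowest median, -0.26.

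No pluripotency gene listed passed at 2 h. With 0.134% of all genes called, the lack of a call in this and the other lists below does not show that they were unchanged. This held for the 16 naive genes tested (median -0.03), the 6 general ones (median -0.08) and the 9 formative ones (median -0.10). *Utf1*, a chromatin-bound pluripotency factor gene, had 25.2 and 24.9 CPM on soft and 35.1 and 31.9 CPM on stiff substrates (-0.42, SE 0.11, adjusted p = 0.14), and passed without the low-count filter (-0.43, adjusted p = 0.0062). *Dppa3* had 11.3 and 15.3 against 9.72 and 9.35 CPM (0.47, SE 0.15, adjusted p = 0.34). The 12 LIF and Stat3 genes, 14 Wnt target genes and 11 BMP and Id genes tested likewise held 0 called genes, with medians of -0.04, -0.007 and 0. *Axin2*, a Wnt target that both groups expressed in the presence of CHIRON, had 113 and 121 CPM on soft and 104 and 105 CPM on stiff substrates (0.16, SE 0.059, adjusted p = 0.38).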

How the data were processed

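RNA of 24 samples was sequenced, 12 in each removal experiment. Per the labels, the authors trimmed reads with Trim Galore, aligned them with TopHat2 2.1.0 to mm10, counted reads per gene with featureCounts 1.5.0 and deposited raw counts. The strand setting was not given in the sources used here. Of the PD03 counts, 12 columns belonging to other samples and 23 empty lines were not used. Of 35022 genes, 15 had names that looked like dates, 34888 were matched to GENCODE M21 and 19322 were protein-coding.

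Protein-coding genes were filtered with filterByExpr (minimum count 10, minimum total 15), normalised by TMM and fitted in edgeR 4.0.16 (R 4.3.3) with the 6 groups of 12 libraries in 1 quasi-likelihood model, threshold 0.05. The SE was the log2 difference divided by the square root of F. Alternatives were DESeq2 1.42.0, its size factors, no filter, all annotated genes, only the libraries compared, a replicate block, no mitochondrial genes (chosen after seeing the data) and leaving out each library. Replicate counts differed by more than sampling (chi-square over its degrees of freedom 2.18 to 3.12), so no library was a copy. The fits were also run on simulated counts for the 2 h comparison. Their spread was that of genes of similar level, with none particular to a gene, so they do not measure error rates in these data. Transcripts were aligned with BLASTN 2.17.0.

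Named genes were all those past the threshold, the next 10 by p, and in each list those past the threshold and the 3 with the smallest p. Members and lists were chosen with earlier results of these data known.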

Additional observations from a re-analysis of the deposited data

Results flagged for a closer look

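*Lefty2* was singled out because its response to PD03 removal differed between substrates by the test of the difference itself. The soft minus stiff difference at 2 h was lower than that at 0 h by -2.04 on the log2 scale (SE 0.31, adjusted p = 0.0039, edgeR). In the fits that each left out 1 of the 8 libraries concerned it ranged from -2.23 to -1.81, with adjusted p from 0.0021 to 0.11.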

How the results depend on the processing

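The 18 calls at 2 h were 14 with DESeq2 and 18 with its size factors in edgeR, all of them among the 18. Without the low-count filter 71 genes passed (14 higher and 57 lower), and with all annotated genes 11 (0 higher and 11 lower). With only the 4 libraries compared 17 passed, 0 of them higher, and 11 of the 18 were kept. The other 6 were genes of the mitochondrial genome. Among genes of the pathway lists outside the 18, *Ier2*, *Arc*, *Actb*, *Hmox1* and *Utf1* passed without the filter, and none did in the other alternatives. Leaving out 1 library gave 5 to 13 calls, 0 higher in every case and 5 to 13 lower (6 without soft replicate 1, 6 without soft replicate 2 and 5 without stiff replicate 2). Not all calls made with 1 library left out were among the 18. Over the 306 values of single genes under alternatives, 0 changed sign. *Egr1* lost its call with DESeq2 alone (log2 -1.33, adjusted p = 0.96), where *Lefty2* and *Fos* had no adjusted p. The cause was not tested.

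Replicate numbers showed no sign of pairing at 2 h, where differences between replicates 1 and 2 correlated at 0.001 between soft and stiff libraries. Between the soft libraries of 0 h and 12 h the correlation was 0.112. Such correlations cannot tell whether samples were paired in culture. A fit with a replicate block called 20 genes at 2 h, the 18 included, and 3 in place of 0 for the difference between 2 h and 12 h.

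At 0 h the count of 4 was 2 with DESeq2, 29 without the filter, 0 with all annotated genes and 0 to 2 leaving out 1 library. At 12 h the count of 103 was 187 without the filter, 175 with only the libraries compared and 12 to 32 leaving out 1 library. From 0 h to 2 h the 263 genes on soft substrates became 138 to 153, and the 366 on stiff substrates 207 to 273, leaving out 1 library. The 1 gene whose response differed became 6 without the filter and 0 to 2 leaving out 1 library. The 0 genes that differed between 2 h and 12 h became 3 with DESeq2, 8 without the filter and 0 to 4 leaving out 1 library. For CHIRON removal 0 became 771 with DESeq2, 315 without the filter and 0 to 8203 leaving out 1 library, the highest being without the deeper stiff library, which left the one of 171333 counts alone. With 2 libraries in a group, small differences in genes of few counts were not detectable.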
